A study of Mus musculus with 21 samples.

Results

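The regions described here are 1089 distal stretches of mouse chromatin that gained H3K4me1 when embryonic stem cells left the naive for the formative state, but did not gain it in cells without MLL3 and MLL4 or with CD alleles of both enzymes. They were selected on the deposited levels themselves. A region had to be intronic or intergenic, to lie more than 1 kb and up to 100 kb from the nearest transcription start site, and to have a mean concentration in wild type of at least 5 on the log2 scale, which is 32 normalized reads. Its level had to be higher in formative than in naive cells by at least 1 (2-fold) in wild type and in the floxed line, and by less than 0.3 in DKO and in dCD. The table gives levels for 186824 regions, of which 81933 passed the annotation, distance and concentration limits and are called distal regions below. Members made up 1.33% of them.

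H3K4me1 was profiled by CUT&RUN, in which an antibody brings a nuclease to chromatin and the released fragments are sequenced. Naive cells, in which LIF and 2 inhibitors hold pluripotency, and formative cells, taken 63 h after LIF2i withdrawal, were compared in 4 genotypes. Wild type (WT) and the line with catalytically dead alleles of both enzymes (MLL3CD_MLL4CD, dCD) carry the line label R1. The line that lacks MLL3 but keeps floxed MLL4 (MLL3KO_MLL4fl, the floxed line) and the line without either enzyme (MLL3KO_MLL4KO, DKO) have no line label, and the floxed line was used as the control of DKO and wild type as that of dCD. The abbreviation CD was read as catalytically dead. MLL3 is thus missing from the floxed line and DKO alike. Whether each line is 1 clone is not stated, so a difference between genotypes and one between lines cannot be told apart.

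Each of the 8 groups had 2 libraries, which share 1 column of levels. No spread between replicates could be computed, no difference between lines carries a test, and values are compared by size only. A level is a log2 value of normalized reads corrected for region width, so it can be compared between groups within a region but not between regions of different width. Members had a median of 25.2 normalized reads in naive and 71.8 in formative wild-type cells, and 29.8 and 27.4 in naive and formative DKO. Over all regions the median transition lay between -0.07 and -0.02 in the 4 genotypes. The sample labels and the protocol disagree on the catalogue number of the H3K4me1 antibody, and the protocol's number is known for H3K27ac. The labels do not settle it, and the mark is called H3K4me1 as labelled. IgG background and MLL4 binding were not analysed here.

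MLL3 (gene Kmt2c) and MLL4 (gene Kmt2d) are the methyltransferases that place most H3K4me1 at enhancers. The mark is usually laid down when transcription factors open a site, and active enhancers also carry H3K27ac, the acetylation set by p300 and CBP. During the naive to formative transition the enhancers of the naive network, bound by factors such as ESRRB and KLF4, are left, and new ones are taken up with factors such as OTX2 and OCT6, the product of Pou3f1.

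To show what such a region looks like, the central 300 bases of 5 members are printed, read from the + strand of mm10 in the RefSeq GRCm38 sequence. The first 4 windows belong to the members with the largest margin. The margin is the smaller of the wild-type and floxed transitions minus the larger of the DKO and dCD transitions. The window near Foxa2, an endoderm transcription factor gene, was added after its values were seen. Capitals mark matches on either strand to any of 7 short motifs: TAATCC (OTX), GGAATG (TEAD), ATGCAAAT (POU octamer), ACAAAG (SOX), CAGCAGG (ZIC), TGTTTAC (FOX) and ATCAAAG (LEF/TCF). A match is a description of letters and not a bound site.
Pcsk2 window, chr2:143540818-143541117: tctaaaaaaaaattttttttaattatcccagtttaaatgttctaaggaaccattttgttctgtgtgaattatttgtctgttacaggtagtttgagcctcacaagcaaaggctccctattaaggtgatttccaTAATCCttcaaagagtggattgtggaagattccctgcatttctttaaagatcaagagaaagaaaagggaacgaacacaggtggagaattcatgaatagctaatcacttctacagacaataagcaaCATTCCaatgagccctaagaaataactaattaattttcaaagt
Thrb window, chr14:17733778-17734077: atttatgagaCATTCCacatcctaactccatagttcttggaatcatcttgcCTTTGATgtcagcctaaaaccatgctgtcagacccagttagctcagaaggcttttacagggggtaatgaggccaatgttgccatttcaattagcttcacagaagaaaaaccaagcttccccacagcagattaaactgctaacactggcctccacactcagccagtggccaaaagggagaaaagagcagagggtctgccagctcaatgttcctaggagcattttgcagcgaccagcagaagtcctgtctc
Ccdc171 window, chr4:83582118-83582417: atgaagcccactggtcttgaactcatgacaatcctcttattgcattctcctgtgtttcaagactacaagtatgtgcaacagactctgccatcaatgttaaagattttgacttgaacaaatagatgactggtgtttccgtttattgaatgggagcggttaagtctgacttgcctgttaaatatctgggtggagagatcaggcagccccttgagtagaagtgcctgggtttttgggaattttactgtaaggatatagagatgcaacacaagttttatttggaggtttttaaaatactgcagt
C330011F03Rik window, chr17:51372623-51372922: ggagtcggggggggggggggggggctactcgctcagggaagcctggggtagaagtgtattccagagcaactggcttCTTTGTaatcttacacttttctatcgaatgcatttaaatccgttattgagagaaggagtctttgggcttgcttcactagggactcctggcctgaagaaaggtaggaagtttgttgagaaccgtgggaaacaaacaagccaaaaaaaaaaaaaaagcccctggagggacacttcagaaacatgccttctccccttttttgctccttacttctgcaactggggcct
Foxa2 window, chr2:148020006-148020305: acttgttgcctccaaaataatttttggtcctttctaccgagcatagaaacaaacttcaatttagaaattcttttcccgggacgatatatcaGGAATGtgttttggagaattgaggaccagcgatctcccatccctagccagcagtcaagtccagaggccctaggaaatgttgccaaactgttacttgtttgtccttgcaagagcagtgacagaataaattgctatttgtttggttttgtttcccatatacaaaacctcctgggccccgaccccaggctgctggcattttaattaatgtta
The Pcsk2 window held an OTX and a TEAD match, the Thrb window a TEAD and a LEF/TCF match, and the C330011F03Rik window a SOX match. The Foxa2 window had a TEAD match. The Ccdc171 window had none of the 7. At least 1 of them stood in the centre of 60.4% of members and of 57.2% of all distal regions.

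The first question was what became of the gains when the enzymes were lost or disabled. In wild type the median level of members was 4.47 in naive and 5.96 in formative cells, and in the floxed line 4.40 and 5.85. In DKO the medians were 4.65 and 4.54, and in dCD 4.61 and 4.55. Formative cells of both mutants thus sat near the naive level of their controls, and the floxed line, which keeps MLL4 alone, lay close to wild type. All 8 values entered the rule, so these figures describe the choice and test nothing.

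The median transition was 1.41 in wild type (quartiles 1.2 and 1.69) and 1.37 in the floxed line (1.17 and 1.64). It was -0.06 in DKO (-0.26 and 0.10) and 0.01 in dCD (-0.18 and 0.15). Over all distal regions the corresponding medians were -0.09, -0.15, -0.01 and -0.05. A gain of 2-fold, which the rule required, was met by 6.22% of distal regions in wild type and by 5.59% in the floxed line.

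**Figure D1:**
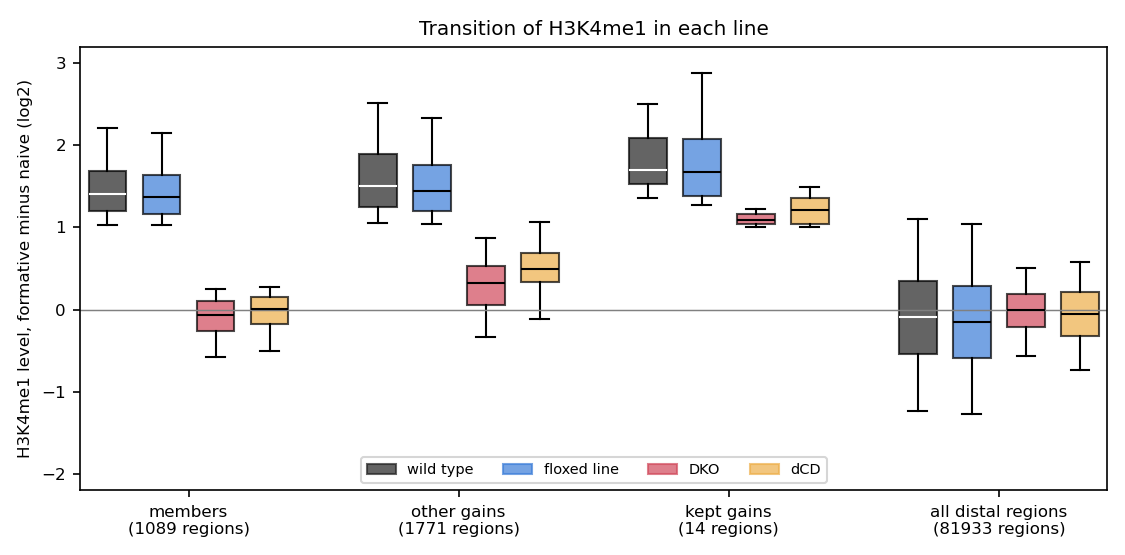
H3K4me1 transition (formative minus naive level, log2) in the 4 genotypes, for members, other gains, kept gains and all distal regions; boxes span the quartiles with the median as a line, whiskers the 5th to 95th percentile of regions. Members were chosen by these values: their medians are 1.41 in wild type and 1.37 in the floxed line, against -0.06 in DKO and 0.01 in dCD.

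The members were not a small remainder of the formative gains. Of the 2874 distal regions with a 2-fold gain in wild type and in the floxed line, 1089 (37.9%) stayed under 0.3 in both mutants. Taken by mutant, 1915 (66.6%) stayed under 0.3 in DKO and 1438 (50.0%) in dCD. A mutant transition under 0.3 was also usual over all distal regions, where the third quartile was 0.19 in DKO and 0.21 in dCD. Among the 2874, a gain of 2-fold was reached by 61 (2.12%) in DKO and by 139 (4.84%) in dCD. It was reached in both by 14 regions, called kept gains. The remaining 1771, called other gains, had median transitions of 1.51 in wild type, 1.45 in the floxed line, 0.32 in DKO and 0.49 in dCD, so most of the gains outside the members were also smaller in the mutants.

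Among members the sign of the mutant transition was counted next. The rule capped this transition at 0.3, which raises the share of falls, so nothing is read from the counts. Over all distal regions the median transition was itself slightly negative, at -0.01 in DKO and -0.05 in dCD. The level was lower in formative than in naive cells at 646 members (59.3%) in DKO, at 536 (49.2%) in dCD and at 340 (31.2%) in both. A fall of 2-fold or more was found at 4 members in DKO and at 1 in dCD. Across the 1089 members, Pearson's r between the DKO and dCD transitions was 0.06 and Spearman's rho 0.08, given as a description over regions that share libraries and were cut at 0.3 by the rule, so no difference between the mutants is read from it. The wild-type and floxed transitions had r = 0.46 and rho = 0.37.

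The values at the edge of the rule were as follows. The members nearest the limit of 0.3 lay near Zfp750 (0.28 in DKO and 0.30 in dCD), Rbfox3 (0.07 and 0.30) and Zfp608 (0.10 and 0.30). Just outside it lay regions near Timp3 (-0.52 and 0.30), Smgc (0.30 and 0.22) and Lrrk2 (0.28 and 0.30).

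The difference between lines was next taken within each state. In formative cells the median DKO level was lower than the floxed line by 1.30 on the log2 scale (distal regions, -0.18), and dCD stood at -1.41 against wild type (distal regions, -0.30). The level was at least 2-fold lower in DKO than in the floxed line at 785 members (72.1%), against 14.8% of distal regions. In dCD it was at least 2-fold lower than in wild type at 896 members (82.3%), against 16.9% of distal regions. Both held at 714 members (65.6%) and at 9.85% of distal regions. Since the rule asked for high formative levels in the controls and no gain in the mutants, nothing is read from the excess.

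In naive cells the members differed from most distal regions in the other direction. The median difference was 0.25 for DKO minus the floxed line and 0.13 for dCD minus wild type, against -0.31 and -0.35 over all distal regions. Other gains, which met the same demand on the controls, had 0.03 and -0.04. At least 2-fold lower naive levels were found at 23 members (2.11%) in DKO, against 16.9% of distal regions, and at 6 members (0.551%) in dCD, against 13% of distal regions. The naive levels entered the rule, low in the controls and, by way of a small transition, not low in the mutants, so this too is a description.

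The same difference can be counted region by region, again over values that the rule used. The naive DKO level was at least 0.5 above the floxed line at 349 members (32.0%), against 21.6% of other gains and 10.6% of distal regions. The naive dCD level was at least 0.5 above wild type at 215 members (19.7%), against 12.8% of other gains and 6.46% of distal regions. The naive level was above the control in both mutants at 534 members (49.0%) and at 19.2% of distal regions. Formative DKO lay within 0.5 of the naive floxed level at 658 members (60.4%), and formative dCD within 0.5 of naive wild type at 794 (72.9%). A low naive control level and a small mutant transition, both asked for by the rule, favour these counts, and nothing is read from their excess.

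The authors tested the wild-type transition, and this test shares its contrast with the rule. By the FDR of the authors' deposited table, 1036 members (95.1%) had an FDR under 0.05 with a higher formative level, against 9.89% of distal regions. The remaining members met the rule on levels without passing that threshold.

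The members with the largest margins give the pattern in single regions. The largest margin, 2.61, belonged to a region near Pcsk2, a prohormone convertase gene (chr2:143539587-143542347, intronic in the table and overlapping an exon of the antisense gene Pcsk2os1 in GENCODE). Naive and formative levels were 2.91 and 6.04 in wild type, 3.37 and 6.19 in the floxed line, 3.31 and 3.52 in DKO, and 4.08 and 4.02 in dCD. The wild-type values correspond to 9.97 and 99.5 normalized reads. Both formative controls stood above the other 6 groups, and naive dCD was the highest of the 4 naive groups. In the authors' deposited table the wild-type FDR of this region was 4.03e-05.

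A Thrb intron (chr14:17733078-17734777), in the gene of a thyroid hormone receptor, went from 3.55 to 6.68 in wild type and from 3.95 to 6.44 in the floxed line. It went from 4.49 to 4.50 in DKO and from 4.58 to 3.63 in dCD. Here the naive level was higher in both mutants than in either control, and dCD ended near the wild-type naive level. A Ccdc171 intron (chr4:83581203-83583332) went from 3.67 to 6.07 in wild type and from 3.97 to 6.32 in the floxed line. It went from 4.58 to 4.30 in DKO and from 4.45 to 4.35 in dCD, again from a higher start.

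An intron of C330011F03Rik (chr17:51371946-51373599) had the largest wild-type transition of all members, 3.47, from 3.41 to 6.88. The floxed line went from 4.06 to 6.68, DKO from 4.96 to 5.14 and dCD from 5.17 to 4.71, so both naive mutant levels lay above both naive control levels. The same was found in an intergenic region nearest Mat2b, a methionine adenosyltransferase subunit gene (chr11:40595035-40597859). At the Mat2b region wild type went from 3.18 to 5.59 and DKO from 4.30 to 4.16.

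Others of the 12 largest margins, from 2.23 to 2.38, lay near 1700081H04Rik, Zfp608, Ism1, Serpina6, Atp13a5 and Cxcl12. Near Cxcl12, the gene of the chemokine that signals through CXCR4 (chr6:117130127-117133287, intergenic), the levels went from 3.93 to 5.83 in wild type and from 3.64 to 5.66 in the floxed line. They went from 5.34 to 5.02 in DKO and from 4.81 to 4.21 in dCD, which left naive DKO between the naive and formative levels of its control. Cxcl12 was the nearest gene of 3 members.

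**Figure D2:**
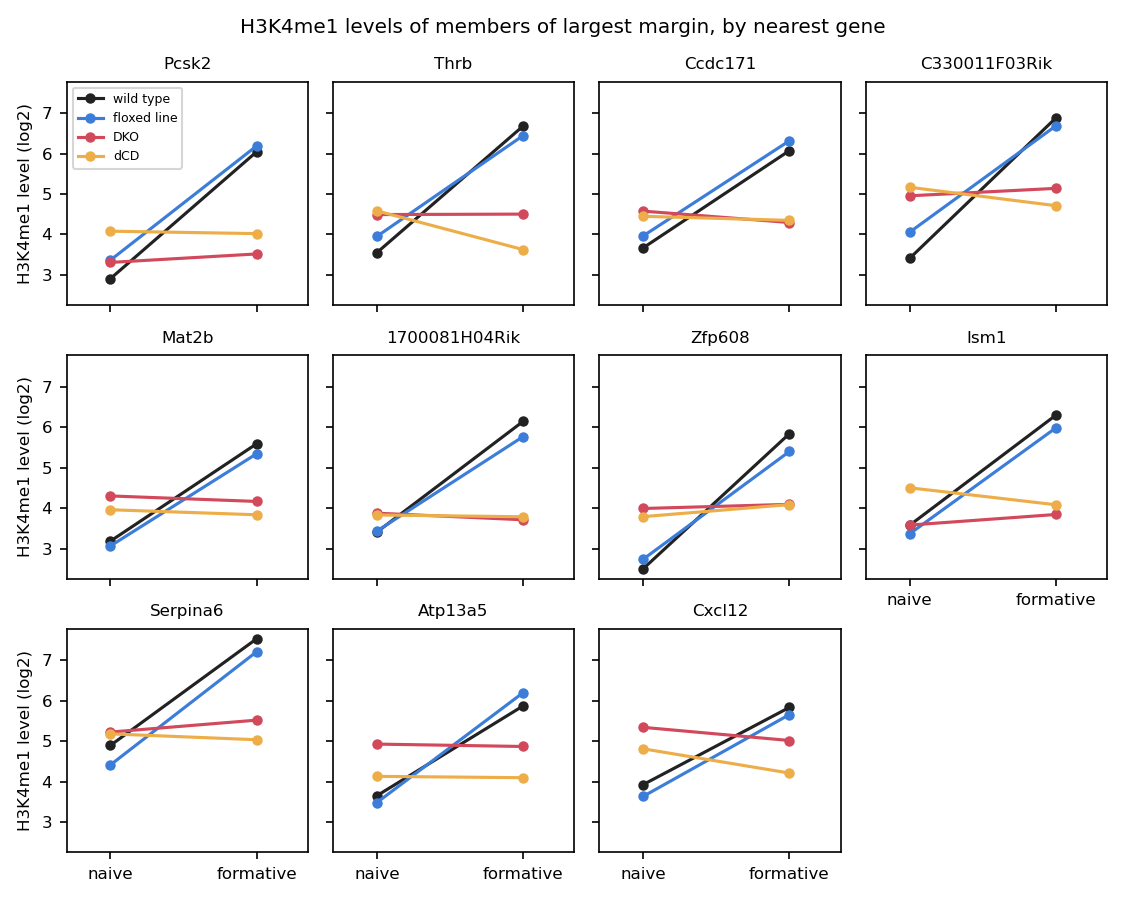
H3K4me1 level (log2) in naive and formative cells of each genotype at members of largest margin, 1 panel per region titled by its nearest gene; each point is 1 pooled group. Wild type and the floxed line rise together, as from 2.91 to 6.04 in wild type at Pcsk2, while the DKO and dCD lines are nearly flat and often begin above the controls.

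The members were spread over many genes. Their nearest genes numbered 915, of which 789 had 1 member, 98 had 2 and 20 had 3. Another member lay within 10 kb of 140 members (12.9%), and joining such neighbours left 1014 groups of at most 5. A gain that was no member lay within 50 kb of 343 members (31.5%), and a region that lost 2-fold in wild type and the floxed line lay within 50 kb of 157 (14.4%). The gains were taken from distal regions only, the losses from all regions with levels. Such shares were not computed for distal regions as a whole, so nothing is read from these neighbour counts.

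The largest numbers per gene were 6, found at Chd6, Me3 and Sorbs2. Me3, a mitochondrial malic enzyme gene, had 6 distal regions in all and each was a member. Their wild-type naive levels ran from 3.30 to 5.47 and their formative levels from 5.34 to 6.93, and no DKO transition exceeded 0.13. Sorbs2, an actin-linked adaptor gene, had 6 members among 13 distal regions and Chd6, a chromatin remodeller gene, 6 among 21. Genes with 4 members were App, the amyloid precursor (of 9), Cacnb2, a calcium channel subunit (of 9), Smgc (of 17), St6gal1, a sialyltransferase (of 14), and Zeb2, a repressor of epithelial genes (of 16). Neighbouring members share a locus and are not independent.

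The place of the members among developmental genes was read through lists of genes assigned by nearest start site, against 1.33% members among the distal regions of all named genes. The lists were chosen with earlier results of these data known and are described by counts. None of 235 distal regions nearest 20 naive pluripotency genes was a member. Neither was any of 93 nearest primitive streak and mesoderm genes, of 89 nearest trophoblast genes or of 63 nearest genes of the H3K4 methylation machinery.

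Formative and primed genes had 5 members among 218 regions (2.29%), near 4 of 27 genes. Pou3f1 had 2, at 20834 and 17281 bp from its start site. At the first of them wild type went from 5.03 to 6.15, the floxed line from 4.97 to 6.19, DKO from 5.43 to 5.46 and dCD from 5.43 to 5.12. At the other, wild type went from 4.72 to 5.74 and DKO from 4.60 to 4.89. Both mutants started near or above the control level, and their formative levels lay below those of the controls. Lef1, a WNT effector gene, and Grhl2, an epithelial factor gene, had 1 member each. At Grhl2 wild type went from 4.99 to 6.39, the floxed line from 5.14 to 6.45, DKO from 4.62 to 4.59 and dCD from 4.37 to 4.19.

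Endoderm genes had 4 members among 84 regions (4.76%), with 2 near Foxa2 and 1 each near Cer1, a secreted Nodal and BMP antagonist gene, and Cxcr4, the chemokine receptor gene. At the Foxa2 region of larger margin (chr2:148018663-148021647, intergenic) wild type went from 3.86 to 5.75 and the floxed line from 4.26 to 5.85. DKO stood at 4.15 and 4.18 and dCD at 3.74 and 3.75, so neither mutant moved and neither began above both controls. Neural fate genes had 3 members among 205 regions (1.46%), 2 near Pax3 and 1 near Lhx2, both transcription factor genes. Germ line genes had 1 member, near the RNA-binding protein gene Dazl, among 86 regions (1.16%).

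Signalling genes had 7 members among 344 regions (2.03%), near Spry2, Spry4 and Dusp6, which are feedback inhibitors of FGF and ERK signalling, Axin2 and Lef1 of the WNT pathway, the ligand gene Wnt5a and the receptor gene Bmpr1b. Near Dusp6 wild type went from 5.81 to 7.15 and the floxed line from 5.67 to 7.24. DKO went from 5.05 to 5.22 and dCD from 5.32 to 5.33, which put both mutants below the controls in both states. Synaptic and cell adhesion genes had 7 members among 257 regions (2.72%), near Nrxn3, Lrrtm4, Cntnap2, Cntn1, Cdh4, Pcdh7 and Epha4. Neuronal channel and receptor genes had 2 among 161 (1.24%), of which 1 lay near Kcnq3, and matrix genes had 3 among 75 (4.00%), 1 near Col1a2 and 2 near Spon1.

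Of the marker lists of cell types, 2 of 40 regions nearest fibroblast feeder genes were members, near Col1a2 and Loxl1. RNA folds in the authors' deposited table, formative over naive in wild type and DKO, were 2.58 and 3.2 for Col1a2 and 3.00 and 2.93 for Loxl1, and the part of feeder cells in any value was not tested. Of the naive stem cell markers, none of 90 regions was a member, and of the formative markers, 2 of 30, both near Pou3f1.

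H3K27ac was not used by the rule and gives a separate view of the same regions. The authors' deposited table holds log2 folds of H3K27ac in wild type and DKO, from samples outside this series and without values for the floxed line or dCD. Formative over naive, the median H3K27ac fold of members in the authors' deposited table was 1.48 in wild type (quartiles 0.60 and 2.49) and 0.46 in DKO (-0.39 and 1.29). Distal regions had 0.24 and 0.03, and other gains 1.70 and 0.67, so both sets had a smaller median fold in DKO than in wild type.

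H3K27ac in the authors' deposited table was at least 2-fold higher in formative wild-type cells at 706 members (64.8%), against 27.5% of distal regions, and at least 2-fold lower at 35 (3.21%), against 17.8%. In DKO it was at least 2-fold higher at 367 members (33.7%), against 16.6% of distal regions, and lower at 143 (13.1%), against 13.9%. The excess of higher regions was thus present in both genotypes and smaller in DKO. Other gains had the same pattern, with 69.4% higher and 4.23% lower in wild type, and 39.4% and 10.3% in DKO. Of the 706 members higher in wild type, 246 (34.8%) were also at least 2-fold higher in DKO, against 41.7% of other gains and 25.3% of distal regions. The wild-type and DKO transitions share no samples.

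The fold was lower in DKO than in wild type at 796 members (73.1%), against 72.1% of other gains and 53.3% of distal regions in the authors' deposited table. Across members the wild-type and DKO folds had r = 0.03, and across distal regions 0.21, both given as descriptions over regions of the same libraries. At members, whose H3K4me1 transition in DKO was under 0.3 by the rule, the H3K27ac fold in DKO ranged from -6.36 to 6.75. Over all distal regions it ranged from -7.42 to 8.84. An H3K27ac fold below 0 in wild type was listed at 133 members (12.2%).

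In the direct comparison of lines in the authors' deposited table, the median H3K27ac fold of DKO over wild type was -0.90 in formative cells (distal regions, -0.17) and 0.15 in naive cells (distal regions, 0.00). Formative DKO was at least 2-fold lower at 511 members (46.9%), against 23.2% of distal regions, and at least 2-fold higher at 88 (8.08%), against 15.7%. Naive DKO was lower at 230 members (21.1%), against 19.9%, and higher at 302 (27.7%), against 19% of distal regions. The shift between lines was therefore found in the formative state, with naive shares near those of distal regions for lower and above them for higher values. Other gains had 42.6% lower and 10.3% higher in formative DKO, and 19.3% lower and 32.2% higher in naive DKO. The pattern was thus not particular to members. Formative wild type enters this comparison and the wild-type transition alike.

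**Figure D3:**
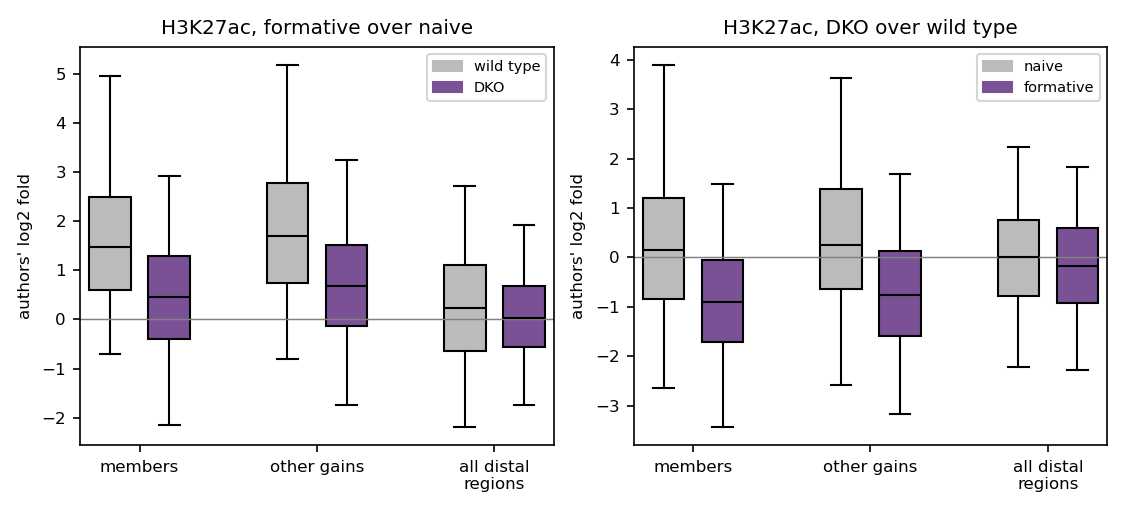
The authors' deposited log2 folds of H3K27ac at members, other gains and all distal regions: formative over naive in wild type and DKO (left) and DKO over wild type in naive and formative cells (right); boxes span the quartiles with the median as a line, whiskers the 5th to 95th percentile of regions. Member medians are 1.48 and 0.46 on the left, and 0.15 and -0.90 on the right.

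The highest H3K27ac folds of members spread over several loci. These folds in the authors' deposited table were 7.41 at an App intron, 7.36 at a region of Cdk15, 6.93 near Osr2, 6.84 near 4922502N22Rik, 6.73 at Usp25 and 6.71 at Gm1715. The DKO folds there were -0.55, 1.01, -1.07, 0.00, 0.37 and -1.17, so 1 of the 6 reached 2-fold. In naive cells DKO over wild type was, in the same order, 6.44, 6.95, 5.55, 0.00, 5.82 and 4.75. Naive DKO was thus far above naive wild type at all of them except 4922502N22Rik. These regions were chosen by a high wild-type fold, which favours a low value in naive wild type. That value enters this comparison too, so nothing is read from its size or from the smaller DKO folds. In formative cells DKO over wild type was -1.52, 0.60, -2.45, -6.84, -0.54 and -3.13. At the App region (chr16:85151380-85154009) the H3K4me1 level went from 4.56 to 6.05 in wild type and from 5.99 to 5.44 in DKO. The lowest folds in the authors' deposited table were -5.46 at Atg10, -5.27 near Epha4, -5.02 at Csmd3 and -2.85 at Slc34a2, where the 2 marks moved in opposite directions. Extreme folds of single regions have no error here, and the reads behind them are not known.

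Among the members with large margins the H3K27ac folds were mixed. The Pcsk2 region had, in the authors' deposited table, 3.38 in wild type and 2.61 in DKO, so acetylation was higher in formative DKO, where the H3K4me1 transition was 0.21. The C330011F03Rik region had 5.63 and -0.52, and the Ism1 region 2.99 and -0.96, so there neither mark was higher in formative DKO, apart from the small H3K4me1 differences under 0.3. The Mat2b region had -0.98 and 3.33, with a higher formative value in DKO only. The first region near Pou3f1 had 1.68 and -0.75, and that near Foxa2 2.14 and 0.82. In naive cells DKO over wild type was 1.02 at the Pcsk2, 4.05 at the C330011F03Rik and 1.51 at the Ism1 region. It was -3.75 at the Mat2b, -0.10 at the Pou3f1 and -1.37 at the Foxa2 region. In formative cells the values were, in that order, 0.25, -2.09, -2.44, 0.56, -2.52 and -2.68.

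RNA of the nearest gene was the other readout outside the rule. Of the 915 nearest genes, 438 have RNA folds in the authors' deposited table, again from samples outside this series and for wild type and DKO only. The nearest gene need not be the target of a region. The median RNA fold of these genes, formative over naive, in the authors' deposited table was 0.87 in wild type (quartiles 0.06 and 2.37) and 0.85 in DKO (0.13 and 1.72). The 9597 genes nearest any distal region had 0.15 and 0.21, and genes nearest other gains 0.97 and 0.90. Genes near members were thus higher in formative cells of both genotypes, and the medians of wild type and DKO were close.

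RNA in the authors' deposited table was at least 2-fold higher in formative wild-type cells for 202 of the 438 genes (46.1%), against 18.6% of genes nearest distal regions, and lower for 23 (5.25%), against 10%. In DKO it was at least 2-fold higher for 194 (44.3%), against 19.8%, and lower for 19 (4.34%), against 5.29%. The genes higher in both numbered 153, which is 75.7% of the wild-type list and 78.9% of the DKO list. Among genes nearest distal regions, 61.4% of the wild-type list were also higher in DKO. The folds in wild type and DKO had r = 0.65 over the 438 genes and r = 0.60 over the 9597.

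The size of the fold differed gene by gene. In the authors' deposited table the fold was lower in DKO than in wild type for 240 of the 438 genes (54.8%), against 47.4% of genes nearest distal regions. Among the 202 genes higher in wild type it was lower in DKO for 144 (71.3%), against 73.8% of the wild-type list nearest distal regions, so this share did not set the members apart. A list cut at a high wild-type fold must lean that way, and nothing is read from it.

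RNA was also compared between the lines directly. The median RNA fold of DKO over wild type in the authors' deposited table was 0.06 in formative and 0.17 in naive cells. Genes nearest distal regions had 0.07 and 0.03, and genes nearest other gains 0.03 and 0.15. Formative DKO was at least 2-fold higher for 52 genes (11.9%), against 6.5%, and lower for 57 (13.0%), against 5.48%. Naive DKO was higher for 87 genes (19.9%), against 8.92%, and lower for 51 (11.6%), against 11.8%. The shares were above the background in both directions in formative cells and for higher values in naive cells, with no test of the difference. Genes nearest other gains had 9.95% higher and 11.9% lower in formative DKO, and 19.3% and 13.6% in naive DKO. The shares were thus not particular to members.

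Genes with nearer members, and genes with several, had larger median RNA folds than the 438 genes together. The 180 genes with a member within 20 kb of the start site had medians of 1.2 in wild type and 0.95 in DKO in the authors' deposited table. Genes with any distal region within 20 kb had 0.14 and 0.20. The 62 genes with at least 2 members had 1.74 and 1.29. No such medians were computed for genes with several other gains or distal regions, so nothing particular to members is read from them. Cacnb2 had 4.44 in wild type and 1.52 in DKO, Sorbs2 3.65 and 1.85, Cxcl12 4.68 and 1.80, and Chd6 0.97 and 0.33. In naive cells DKO over wild type was 2.01 for Cacnb2, 2.32 for Sorbs2, 1.38 for Cxcl12 and 0.36 for Chd6. In formative cells it was -0.91, 0.52, -1.50 and -0.28. A lower fold in DKO thus did not always mean lower RNA in formative DKO than in formative wild type. Of all 12 genes that had at least 3 members and an RNA fold, the fold was lower in DKO for 10. It was higher for Colec12, a collectin gene (2.38 and 2.51), and Tmem106b, a lysosomal membrane protein gene (0.39 and 0.44). Both were named after their values were seen. The share with a lower fold in DKO was 54.8% over all member genes and 47.4% over genes nearest distal regions. Several of the 12 had a high wild-type fold, which favours a lower one in DKO, so nothing is read from this count. For Me3 and App, RNA folds were not used here.

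**Figure D4:**
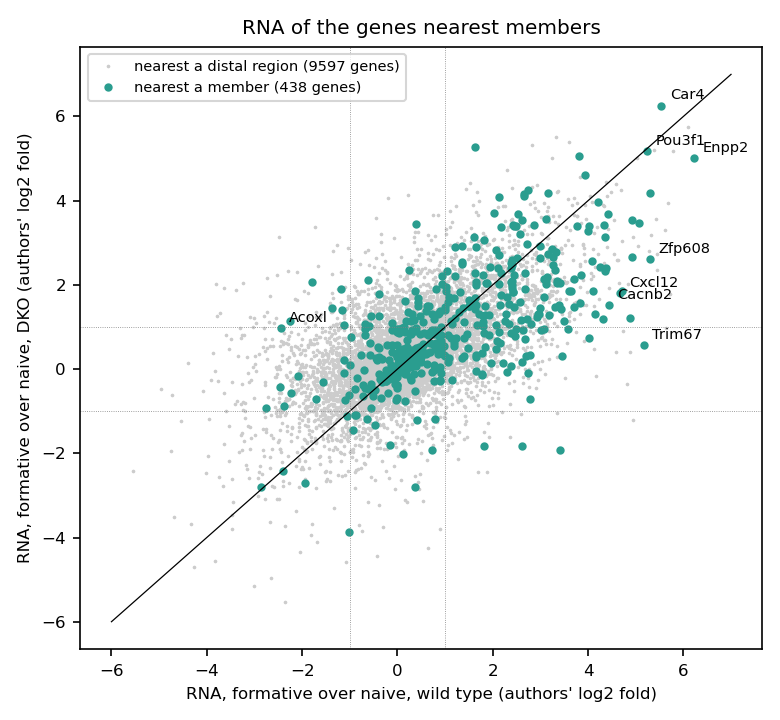
The authors' deposited log2 RNA folds, formative over naive, in wild type (horizontal) and DKO (vertical) for 438 genes nearest a member and 9597 genes nearest any distal region; each point is 1 gene, the diagonal marks equal folds and dotted lines a 2-fold rise or fall. Of the 202 member genes at least 2-fold higher in wild type, 153 are so in DKO too, with Trim67 (5.17 and 0.56) far below the diagonal.

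The genes with the highest wild-type RNA folds held several kinds of behaviour. Pou3f1 had, in the authors' deposited table, 5.24 in wild type and 5.19 in DKO, Car4, a membrane carbonic anhydrase gene, 5.54 and 6.26, and Enpp2, the autotaxin gene, 6.22 and 5.00. Formative DKO stood at -1.36 against wild type for Enpp2, at 0.47 for Pou3f1 and at 0.43 for Car4. For all 3 the DKO fold was 5 or more, and the genes named next had smaller DKO folds. The member regions near these 3 genes were chosen for an H3K4me1 transition under 0.3 in DKO. Pou3f1 had 2 members among 9 distal regions, and the levels of its non-member regions are not given here. Whether the RNA folds depended on the H3K4me1 gains was not tested. Zfp608, a zinc finger gene with 3 members, had 5.30 and 2.61, Flt1, a VEGF receptor gene, 5.08 and 3.47, Pcdh1, a protocadherin gene, 5.29 and 4.18, and Pkdcc, a secreted kinase gene, 4.93 and 2.67. Trim67, a TRIM protein gene, had 5.17 and 0.56, and formative DKO stood at -3.97 against wild type. For Zfp608, Flt1, Pcdh1 and Pkdcc, DKO over wild type was 2.89, 1.28, 0.14 and 1.33 in naive cells. In formative cells it was 0.20, -0.33, -0.98 and -0.93.

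A few genes near members had lower RNA in formative cells. In the authors' deposited table the lowest wild-type RNA folds were -2.87 for Laptm5, -2.76 for Mitf, the melanocyte transcription factor gene, -2.46 for Ttc29, -2.45 for Acoxl and -2.41 for Slc6a12, a betaine transporter gene. Their DKO folds were -2.80, -0.93, -0.42, 0.98 and -2.41. Of these, Laptm5 and Slc6a12 had similar folds in both genotypes, and that of Acoxl had the opposite sign in DKO.

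Genes of the fixed lists also differed, and not all of them are given here. Dusp6 had, in the authors' deposited table, RNA folds of 3.81 in wild type and 5.06 in DKO, Wnt5a 2.08 and 2.84, and Grhl2 4.02 and 3.41. Spry2 and Axin2, also signalling genes, were under 2-fold in wild type, with 0.36 and 1.86, and 0.40 and -1.22. Lhx2 had -0.02 and 0.29, Cxcr4 -0.16 and -1.79, and Dazl -1.12 and 1.05. Kcnq3, a potassium channel gene, had 3.60 and 1.86, with formative DKO at -1.60 against wild type, and Cntnap2 had 2.09 and 0.67 with -2.38. Foxa2 had 0.72 and -1.93 and Pax3 0.66 and 1.5, so these transcription factor genes with members were under 2-fold in wild type. For Foxa2, DKO over wild type was 2.56 in naive and -0.08 in formative cells, and for Pax3 1.46 and 2.30.

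The sequence and position of members were read from the genome of the same build. Members had a median width of 2394 bp (distal regions, 2863), a GC content of 44.5% (46.6%) and 8.98 CpG per kb (12.2). They lay farther from genes, with a median of 30645 bp to the nearest start site against 18656 bp, and 30.1% lay beyond 50000 bp against 17.7%. Intronic regions made up 47.1% of members and 56.5% of distal regions. The soft-masked share of the central window, which marks repeats, was 13.3% against 14.3% at the median. The part of width, GC content and distance in the values above was not tested.

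By chromosome, leaving out Y with no member among 9 distal regions, members made up from 0.869% of distal regions on chromosome 8 to 1.82% on chromosome 16. On the X chromosome 7 of 690 distal regions were members, which is 17.1% of the gains there, against 48.5% of the gains on chromosome 17. The H3K27ac medians of intronic and intergenic members were close in the authors' deposited table, at 1.46 and 1.49 in wild type and 0.44 and 0.49 in DKO.

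Motif matches were counted in the central 300 bases on both strands, and overlapping matches to different motifs were each counted. The letters of ESRRB, KLF and ETS factors, the first pair part of the naive network, were rarer in members than in distal regions by the largest ratios. The ESRRB letters TCAAGGTCA were in 0.0918% of members (1 region), in 0.282% of other gains and in 1.09% of distal regions. The KLF letters GGGTGTGG were in 0.826% of members (9 regions), 1.64% of other gains and 3.52% of distal regions. For ETS (ACCGGAAG) the shares were 0.0918%, 0.226% and 0.400%, each resting on few regions.

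Among motifs of other developmental factors, FOX letters had the largest ratio of members to distal regions. The FOX letters TGTTTAC were in 7.35% of members, 6.66% of other gains and 4.44% of distal regions. TEAD (GGAATG) was in 20.2%, 22.8% and 17.2%, the POU octamer (ATGCAAAT) in 2.75%, 2.82% and 1.94%, and SOX (ACAAAG) in 26.5%, 25.9% and 25.4%. OTX (TAATCC) was in 11.8%, 10.1% and 12.1%, which gives members no excess over distal regions. ZIC (CAGCAGG) was in 11.3%, 15.2% and 11.1%, with members near the distal share and other gains above both.

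For the remaining motifs, members and distal regions were at 18.2% and 22.9% for ZEB/SNAI (CAGGTG), 9.92% and 8.97% for AP-1 (TGANTCA), and 8.45% and 7.27% for HOX/LHX (TAATTA). LEF/TCF (ATCAAAG) was in 5.69% and 5.07%, SMAD (CAGACA) in 28.0% and 28.0%, and GRHL (AACCNGTT) in 2.11% and 2.30%. OCT-SOX (TTGTNATGC) was in 0.918% and 0.887%, STAT (TTCCNGGAA) in 0.826% and 1.00%, and CTCF (AGGGGGCG) in 0.459% and 0.675%. Members have fewer CpG and less GC than distal regions, and the part of base composition in these shares was not tested.

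**Figure D5:**
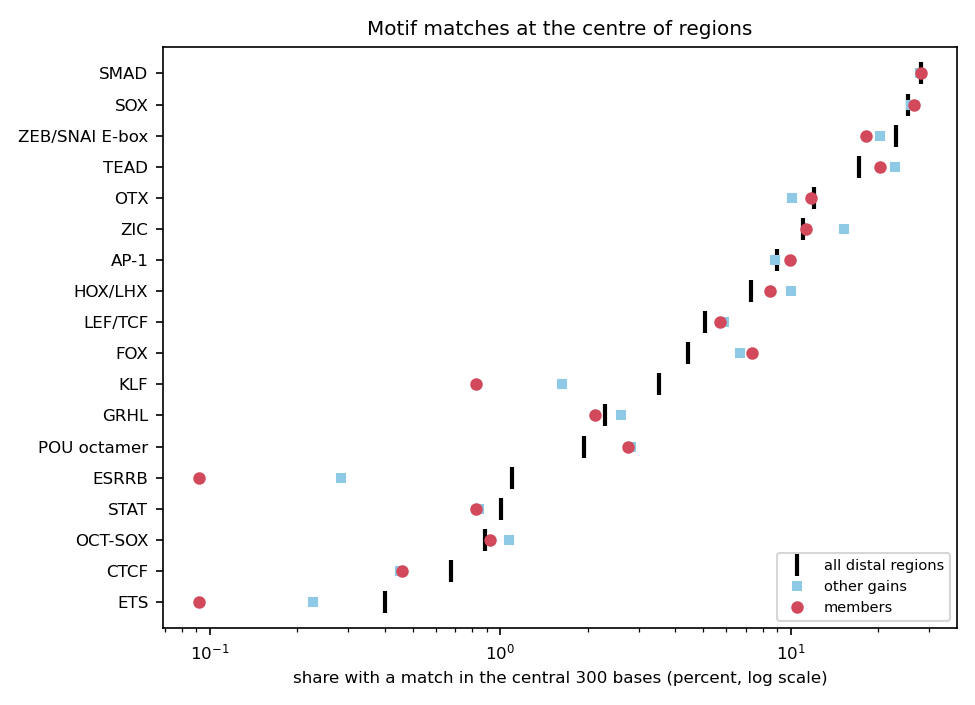
Share of regions (percent, log axis) with a match to each of 18 motifs in the central 300 bases, for members, other gains and all distal regions. Members lie to the left of distal regions for ESRRB (0.0918% against 1.09%) and KLF (0.826% against 3.52%) and to the right for FOX (7.35% against 4.44%).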

How the data were processed

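CUT&RUN libraries of H3K4me1 were summarised by the authors in 1 table in mm10 coordinates, and the submitters' processing notes list DiffBind, SEACR, Bowtie2, Trim Galore and deepTools. Tool versions and roles, and any scaling by the yeast spike-in, were not given in the sources used here. Per the file headers the deposited H3K4me1 levels are on a log2 scale, and each group's pair of libraries is merged into a single column, named CKO for the floxed line as in that line's sample descriptions. The deposited authors' comparison of wild-type states gives a log2 fold and an FDR, an adjusted p-value. The deposited log2 fold columns of H3K27ac and RNA come from samples outside this series. The sign of the DKO columns, DKO over wild type, was checked by their identity with differences of the transitions.

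Levels were found to equal log2 of 1 plus a constant times reads over the square of the width, and normalized reads were computed back from this. A design with tests per region had been planned, but pooled columns allow none, and values are differences, medians and counts at 2-fold. Members, gene lists and the rule for named genes were chosen with earlier results of these data known. The rule names the 12 largest margins, the 8 genes with the most members, up to 4 genes per list, the 3 regions on either side of the limit of 0.3, and the extremes of the authors' folds (6 and 4 for H3K27ac, 8 and 5 for RNA). Other list members are named for completeness, and other genes were named after their values were seen. RNA folds were taken once per gene. Sequences come from the RefSeq GRCm38 genome and overlaps from GENCODE annotation. Scripts used Python 3.11.15, pandas 2.3.3, numpy 2.4.6 and pysam 0.24.0, and the selection was tested on simulated data. The simulated gains were larger, and lay at regions with more naive reads, than those of most members. The simulation was thus a check of the code and says little about members near the limits.

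Not used were 14 columns of other measures and a fold column under the abbreviation AT. In 271 regions the gene symbol was a date, 6 members had no usable symbol, and 2 regions without levels were left out. Some members that the rule names are not reported here. Alternatives covered scaling, each limit of the rule, region spacing, distance and window length.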

Additional observations from a re-analysis of the deposited data

How the results depend on the processing

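No paired analysis was possible because each column pools both libraries of a group and carries no replicate number, and leaving out a replicate was not run for the same reason. The number of members depended on the limits: 2719 with no minimum concentration, 315 with a minimum of 6, 238 with a gain of 1.5, 340 with both mutants under 0 and 1739 with both under 0.5. Centring each group gave 1007 (939 shared with the 1089), quantile scaling 1249 (950 shared), a log2 of (reads + 1) 1103 (1057 shared), a distance up to 50000 bp 761 and joining within 10 kb 1014. The share past the authors' FDR was 93.3% centred, 92.0% quantile scaled and 99.0% at a minimum of 6. Median width was 2520 bp quantile scaled, 3762 bp at a minimum of 6 and 2291.5 bp with mutants under 0, and CpG per kb 9.39, 9.87 and 9.49 in that order, with GC at 45.1% for a minimum of 6. That minimum gave H3K27ac medians of 1.61 in wild type and 0.57 in DKO, and RNA medians of 1.06 in wild type, 0.27 for naive and -0.065 for formative DKO over wild type, the last against 0.062 as reported. Within 20 kb the wild-type RNA median was 1.2. Centring the fold columns, chosen after seeing the data, gave H3K27ac medians of 1.15 in wild type and -0.70 for formative DKO over wild type, and RNA medians of 0.71 in wild type and 0.64 in DKO. The cause of these shifts was not tested. With mutants under 0, the median RNA fold of formative DKO over wild type was -0.027 and the naive H3K27ac fold of DKO over wild type 0.041, against 0.148 as reported. Centring the fold column put the former at -0.013, so its sign is not fixed. Shares of rare motifs rest on few regions: ESRRB ran from 0% with mutants under 0 to 0.317% at a minimum of 6, and ETS from 0% at that minimum to 0.294% with mutants under 0. Of the motif shares, 25 moved beyond their interval, mostly with a window of 600 bases. Pooled columns leave variation between cultures unmeasured.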

Other observations

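The 14 gains kept in all 4 genotypes lay near Ano5, Glra1, Plaat1, Astn2, Cracr2a, Ndst4, Rprl1, Celf2, Defb44-ps, Vmn2r96, Fam181b, Xkr4, Slc6a11 and Rspo1. The region near Plaat1, a phospholipid-metabolising enzyme gene, went from 5.07 to 7.22 in wild type, from 5.29 to 7.32 in the floxed line, from 5.80 to 6.97 in DKO and from 5.51 to 6.77 in dCD. The region near Ano5, an anoctamin gene, had the largest DKO transition of the 14, from 2.97 to 4.47, and its level in formative DKO stayed below the 6.12 of formative wild type. Median transitions of the 14 were 1.70, 1.68, 1.09 and 1.22 in wild type, the floxed line, DKO and dCD, all used by the rule that defines them.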
